A study of Mus musculus with 9 samples.

Results

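The DPPA4 sites of 3T3 fibroblasts made to carry Dppa4 were compared with those of P19 cells. The comparison takes every peak of the 2 lists from 3T3 and the 2 lists from P19, which is 124209 of the 229345 peaks deposited for the series. Of these, 33002 belong to 3T3 and 91207 to P19. The series mapped DPPA4 by ChIP-seq, in which chromatin is sonicated, immunoprecipitated with an antibody to the protein and sequenced. The 3T3 line is a mouse fibroblast line that in this study expressed Dppa4 ectopically. P19 is a mouse embryonal carcinoma line with no added gene named in its labels. Both were grown in DMEM with serum and glutamine, and both were precipitated with the same antibody. Each line gave 2 immunoprecipitated libraries, called replicate 1 and replicate 2 here, and 1 input library that was not used. How Dppa4 was brought into the 3T3 cells, whether they are 1 clone, and whether Dppa2 came with it are not given in the sources used for this comparison. A precipitation from 3T3 cells without Dppa4 was not analysed here.

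DPPA4 is a small nuclear protein with a SAP domain, a fold that binds DNA, and is known as a marker of pluripotent cells and the early embryo. It works as a partner of the related protein DPPA2, and the pair associates with promoters and with chromatin that is poised for activation during development. Fibroblasts normally keep the Dppa4 gene silent, whereas embryonal carcinoma cells resemble the pluripotent cells of the embryo. Ectopic expression therefore asks which sites DPPA4 takes up in a differentiated cell and which sites of a pluripotent cell give no peak there.

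A peak here is an interval called by the authors in 1 library, with a score from their peak caller. The scale of the score is not named in the files, so scores were turned into percentiles within a list, with 100 for the strongest peak. A region of a line joins peaks that overlap between its 2 libraries, and must hold a peak of both. Overlap means at least 1 shared base pair. Ranges in brackets after a share are Wilson 95% intervals. They count peaks as independent and cover counting error alone. The lists hold no read counts, so depth is unknown and a missing peak may be a site below detection. Peak lists hold no expression values, so the labelled cell types could not be set against marker genes.

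3T3 replicate 1 held 15462 peaks and replicate 2 held 17540, while P19 replicate 1 held 40011 and replicate 2 held 51196. The P19 mean was 2.76-fold the 3T3 mean (45604 ± 7909 against 16501 ± 1469, SD, n = 2), and the lists of the lines did not overlap in length. With 2 libraries against 2, the exact two-sided permutation p cannot fall below 0.333, which was the value here. The scores of separate lists may not share a scale, so the next values describe each list and are not compared. The median score was 103 and 153.9 in the 3T3 libraries and 127.6 and 138.1 in the P19 libraries. Scores of 1000 or more made up 1.07% and 4.59% of the 3T3 peaks and 10.5% and 10.8% of the P19 peaks. Scores at or above 3100, where many P19 peaks are tied, were found at 3.50% and 4.12% of the P19 peaks and at 0.00647% and 0.0912% of the 3T3 peaks. Sequencing depth, the number of cells with DPPA4 and the amount of DPPA4 at each site per cell cannot be told apart in such lists.

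Peak width set 1 library apart from the other 3. The median width was 400 bp in 3T3 replicate 1 and 872 bp in 3T3 replicate 2, against 453 and 540 bp in P19. Wide peaks meet other peaks more easily, so values are given for each 3T3 library below.

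Taken from the fibroblast side, most sites lay at P19 sites. Of the 11178 regions of 3T3, 7636 overlapped a region of P19, which is 68.3% (67.4 to 69.2), and 85.2% overlapped a peak of at least 1 P19 library. Taken from the carcinoma side, overlap with a 3T3 region was found for 7905 of 32963 regions, which is 24.0% (23.5 to 24.5), and 36.1% overlapped a peak of at least 1 3T3 library. Single libraries gave the same picture. Of the peaks of 3T3 replicate 1, 64.1% overlapped P19 replicate 1 and 74.4% overlapped P19 replicate 2. Of the peaks of 3T3 replicate 2, the shares were 65.8% and 75.0%. In the other direction, 23.9% of the peaks of P19 replicate 1 overlapped 3T3 replicate 1 and 31.5% overlapped 3T3 replicate 2. For P19 replicate 2 these shares were 20.7% and 27.4%. Every list was also limited to its 15462 strongest peaks, which shortened 3T3 replicate 2 and both P19 lists. The share was then 33.7% of 3T3 regions and 27.2% of P19 regions.

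Merging all 4 lists gave 59260 regions, of which 7640 (12.9%) had a peak in every library. The largest class, with 21061 regions, had a peak in both P19 libraries and in neither 3T3 library. The reverse class, with a peak in both 3T3 libraries and none in P19, held 1654 regions. Regions seen in both P19 libraries and in 1 of the 3T3 libraries numbered 3132 with 3T3 replicate 2 and 803 with 3T3 replicate 1. Their median percentiles were 84.5 and 87.9 in the P19 libraries with 3T3 replicate 2, and 80.4 and 84.9 with 3T3 replicate 1. The 3T3 peak in them was weak, at a median percentile of 23.5 in replicate 2 and 20.9 in replicate 1. They thus ranked higher in P19 than the regions seen in all 4 libraries, whose P19 medians were 65.7 and 74.1. Regions of both P19 libraries without any 3T3 peak had lower P19 medians, 51.6 and 61.9. Strong P19 sites thus appeared in the 3T3 lists in part as a weak peak of a single library.

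The strongest 3T3 sites were nearly all P19 sites. Of the 500 strongest peaks of 3T3 replicate 1, 489 overlapped a peak of P19 replicate 1 and 493 a peak of P19 replicate 2. Of the 500 strongest of 3T3 replicate 2, the numbers were 489 and 498. The share fell steadily with rank, as the plot of shares by score decile shows. In the highest decile of 3T3 replicate 1, 94.3% (93.0 to 95.4) lay in P19 replicate 1 and 98.4% in P19 replicate 2, against 46.6% (44.1 to 49.1) and 57.6% in the lowest decile. In 3T3 replicate 2 the highest decile gave 94.6% and 98.5%, and the lowest 52.8% and 60.2%. How far weak 3T3 peaks recurred within 3T3 differed between the libraries. A share of 59.9% of the lowest decile of replicate 1 had a peak in replicate 2, but 17.5% of the lowest decile of replicate 2 had a peak in replicate 1.

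The strongest P19 sites behaved differently and depended on the 3T3 library looked at. In the highest decile of P19 replicate 1, 38.2% (36.7 to 39.7) overlapped 3T3 replicate 1 and 62.9% (61.4 to 64.4) overlapped 3T3 replicate 2. For P19 replicate 2 the shares were 35.2% and 57.0%. The lowest decile gave 12.2% and 18.6% for P19 replicate 1, and 8.26% and 12.3% for P19 replicate 2. All of these peaks of the highest P19 deciles were present in the other P19 library (100%). Among the 4416 P19 regions with a mean percentile over 90, 1465 (33.2%) had no peak in either 3T3 library, 1628 (36.9%) had a peak in 3T3 but no 3T3 region, and 1323 (30.0%) overlapped a 3T3 region. The opposite case was rare. Of the 1513 3T3 regions with a mean percentile over 90, 11 (0.727%) had no P19 peak at all. The P19 lists are longer, so a 3T3 region has more peaks to meet, and the contrast depends on list length. With lists of equal length, 33.7% of all 3T3 regions overlapped a P19 region and 27.2% of all P19 regions a 3T3 region.

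**Figure D1:**
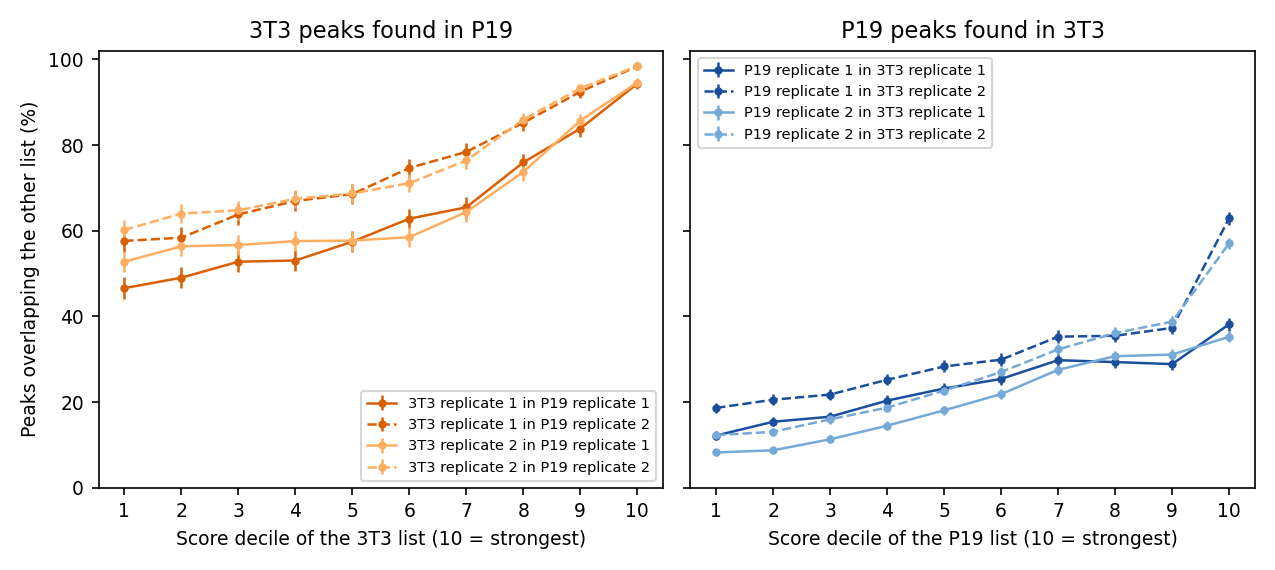
Share of peaks that overlap a peak of the other line, by score decile within the list, for each of the 8 pairs of libraries. Points are shares and bars are Wilson 95% intervals. Whole lists were used, and the P19 lists are longer than the 3T3 lists. The 3T3 curves climb to 94.3% or more in the highest decile, whereas the P19 curves end at 35.2% to 38.2% with 3T3 replicate 1 and at 57.0% to 62.9% with 3T3 replicate 2.

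Sites that were strong in 1 line were seldom among the strongest of the other. When each list was limited to its 2500 strongest peaks, between 4.28% and 5.52% of a list overlapped the list of the other line. At that length the overlap within a line was 78.1% for 3T3 and 92.3% for P19 (means of both directions). With 5000 peaks the shares between lines were 8.76% to 10.3%, and with 10000 peaks 21.6% to 24.7%. With 15462 peaks they were 31.6% to 39.7%, against 77.1% between the 3T3 libraries and 86.5% between the P19 libraries. The between-line range lay below both within-line values at every length tried. Yet 91.1% and 93.0% of the 5000 strongest peaks of the 3T3 libraries lay at some peak of P19 replicate 2. At some peak of P19 replicate 1, the shorter list, the shares were 83.4% and 85.4%. So the strongest 3T3 sites were mostly present in P19 but not among its strongest.

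The order of scores within shared sites shows the same thing from each side. Peaks of the lowest decile of 3T3 replicate 1 that met a P19 peak met strong ones, with a median P19 percentile of 78.9 in replicate 1 and 75.8 in replicate 2. For the lowest decile of 3T3 replicate 2 these medians were 82.5 and 83.7. They sank to between 52.9 and 64.5 in decile 8 and came back to between 70.3 and 78.1 in the highest decile. Peaks from the highest P19 decile made up 34.4% of the P19 partners of the lowest decile of 3T3 replicate 1, and 9.53% of the partners of its highest decile (P19 replicate 1). For 3T3 replicate 2 the corresponding shares were 37.3% and 9.16%. With P19 replicate 2 they were 31.6% and 12.5% for 3T3 replicate 1, and 38.35% and 12.0% for 3T3 replicate 2. A decile holds about 10% of its list, so the partners of the highest 3T3 decile stood near that share. Seen from P19, the median 3T3 percentile was highest in P19 decile 7 or 8, at 75.6 to 76.7, and lower above them. In the highest P19 decile it was 38.0 and 34.3 for P19 replicate 1 and 40.0 and 34.4 for P19 replicate 2. The fall toward the strongest P19 peaks was present in all 4 pairs of libraries. Peaks enter these medians only where a partner exists, so a weak partner had to pass the score minimum of 50 to be counted.

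**Figure D2:**
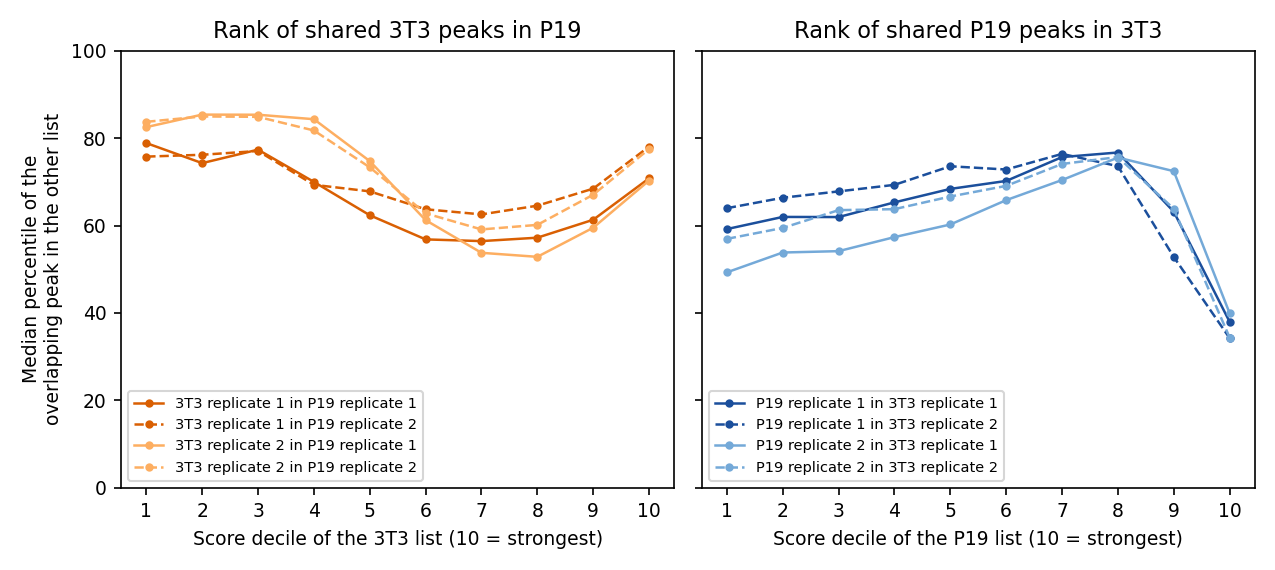
Median percentile, in the list of the other line, of the strongest overlapping peak, by score decile of the list named on the x axis. Lines stand for pairs of libraries. Shared 3T3 peaks of decile 1 have P19 medians of 75.8 to 83.7, and shared P19 peaks of decile 10 have 3T3 medians of 34.3 to 40.0.

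The 7640 regions with a peak in all 4 libraries can be sorted into quintiles (1 the weakest, 5 the strongest) by their mean percentile in each line. Of P19 quintile 5, 666 regions (43.6%) belonged to 3T3 quintile 1 and 209 (13.7%) to 3T3 quintile 5. P19 quintile 1 also had more regions in 3T3 quintile 1 (248) than in 3T3 quintile 5 (121). In P19 quintiles 2, 3 and 4 the counts ran the opposite way, with 163, 192 and 259 regions in 3T3 quintile 1. 3T3 quintile 5 held 121 regions from P19 quintile 1, 269 from quintile 2, 391 from quintile 3 and 538 from quintile 4. The 666 regions weak in 3T3 and strong in P19 had median scores of 62.2 and 87.4 in the 3T3 libraries and 2723 and 3100 in the P19 libraries. The 121 regions of the opposite corner had median scores of 466 and 836 in 3T3 and 70.1 and 135.4 in P19. Over all 7640 regions the Spearman rank correlation between a 3T3 and a P19 library was between -0.114 and -0.049, while that between the 3T3 libraries was 0.857 and that between the P19 libraries 0.882. Regions are no independent replicates, so these correlations only describe the lists. Between the means of the lines the value was -0.0807, and it turned to 0.0544 over the 6867 regions with no score at 3100 or above. It was -0.238 without 3T3 replicate 1 and 0.0371 without P19 replicate 1, so its sign over all regions has no weight. Over the 6307 regions with a mean P19 percentile up to 90, the line means correlated at 0.16 (0.118 to 0.173 over the 4 pairs). Over the 1333 regions above 90 the value was -0.108 (-0.154 to -0.071).

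**Figure D3:**
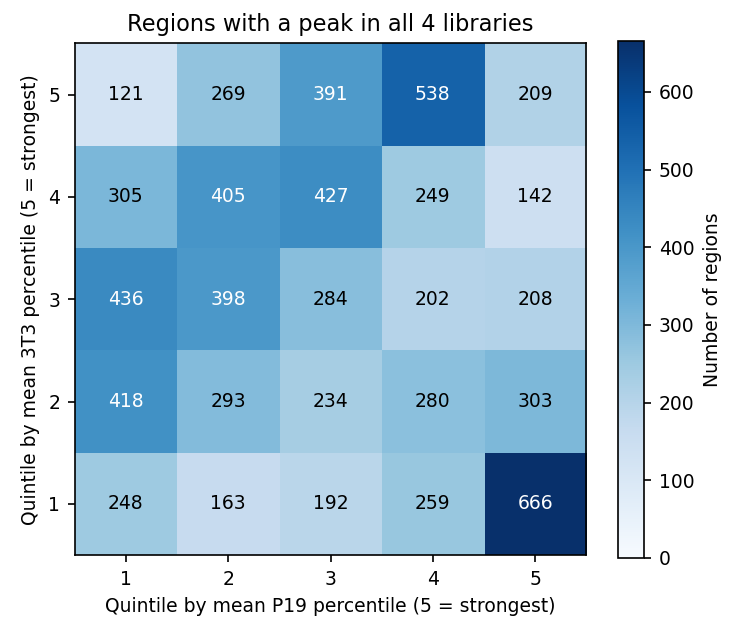
Number of regions with a peak in all 4 libraries, by quintile of the mean P19 percentile (x axis) and of the mean 3T3 percentile (y axis). The cell of the strongest P19 and weakest 3T3 quintiles holds 666 regions, the most of any cell, and the strongest quintiles of both lines share 209.

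Among strong P19 peaks, the wide ones were more often found in 3T3 than the narrow ones. In the highest decile of P19 replicate 1, peaks of 600 to under 800 bp overlapped 3T3 replicate 1 in 23.8% (21.2 to 26.7) and 3T3 replicate 2 in 44.2% (41.0 to 47.4) of 928 cases. Peaks of 2000 bp or more did so in 74.3% (68.1 to 79.7) and 90.4% (85.7 to 93.6) of 218 cases. In P19 replicate 2 the shares went from 18.8% and 34.05% at 600 to under 800 bp to 69.4% and 85.1% at 2000 bp or more. Score moved with width, since 0.754% of the 600 to under 800 bp peaks of P19 replicate 1 scored 3100 or more, against 71.1% of the widest class. The width classes were therefore also compared among peaks at the ceiling. Peaks tied at 3100 may still differ in strength, so this cannot separate width from strength. Of the P19 replicate 1 peaks scoring 3100 or more, those under 1000 bp overlapped 3T3 replicate 2 in 61.7% (54.8 to 68.1) and those of 1500 bp or more in 92.3% (89.5 to 94.4). With 3T3 replicate 1 the shares were 36.8% and 63.7%. Within the other deciles the wider peaks were also shared more often. In decile 9 of P19 replicate 1, peaks up to the median width of 753 bp overlapped 3T3 replicate 1 in 17.3% and wider ones in 40.4%. In decile 9 of the 3T3 lists width made less difference. For 3T3 replicate 1 the shares in P19 replicate 1 were 81.4% for narrow and 86.3% for wide peaks. For 3T3 replicate 2 they ran the other way, 87.2% and 84.15%. This contrast between the lines did not hold in every decile. In decile 1 of P19 replicate 1, the shares in 3T3 replicate 1 were 11.5% for narrow and 12.9% for wide peaks. In decile 1 of 3T3 replicate 1, the shares in P19 replicate 1 were 44.6% and 48.8%.

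A wide interval is easier to hit, so each peak was also set to 500 bp around its midpoint. The difference between top-decile P19 peaks of 1500 bp or more and those under 800 bp was then 32.5 percentage points (28.8 to 38.1 over the 4 pairs of libraries), against 43.8 points (39.1 to 49.5) with the deposited extents. For P19 replicate 1 and 3T3 replicate 2, the 500 bp windows gave 44.2% at 600 to under 800 bp, 79.5% from 1500 to under 2000 bp and 67.0% at 2000 bp or more. With 3T3 replicate 1 the windows of P19 replicate 1 gave 23.8%, 50.1% and 55.05% in these classes, against 23.8%, 56.0% and 74.3% with the deposited extents. In P19 replicate 2 the share at 2000 bp or more fell from 69.4% to 46.8% in 3T3 replicate 1 and from 85.1% to 60.7% in 3T3 replicate 2 when windows replaced the extents. In all 4 pairs the windows gave a smaller difference between wide and narrow peaks, and the wide peaks remained the more often shared.

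**Figure D4:**
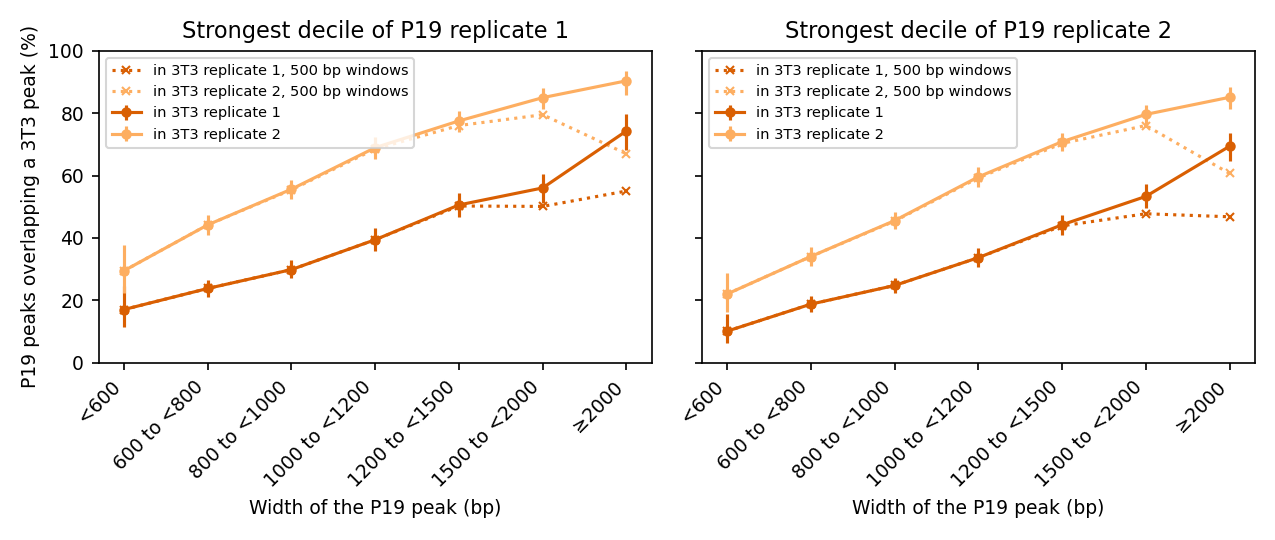
Share of the strongest P19 decile that overlaps a 3T3 peak, by width of the P19 peak in bp. Solid lines use deposited extents with Wilson 95% intervals, and dotted lines use 500 bp around each midpoint. In P19 replicate 1 the share in 3T3 replicate 2 climbs from 44.2% at 600 to under 800 bp to 90.4% at 2000 bp or more.

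For P19 peaks at the score ceiling, the 3T3 partner, where present, mostly ranked below the middle of its list. Of the 1399 such peaks of P19 replicate 1, 47.7% overlapped 3T3 replicate 1 and 79.8% overlapped 3T3 replicate 2. Of the 2108 of P19 replicate 2, the shares were 42.8% and 72.7%. The median 3T3 percentile of the partners was between 35.8 and 40.0 in the 4 pairs. Between 5.09% and 8.55% of the partners stood in the highest 3T3 decile and between 7.07% and 12.4% in the lowest. A decile holds about 10% of its list, so the partners were not gathered in the lowest decile.

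Where peaks of the lines overlapped, their midpoints lay close together. Only overlapping peaks were counted, so their widths limit how far apart the midpoints can be. The median distance between midpoints of overlapping peaks was 82 bp for 3T3 replicate 1 with P19 replicate 1 and 92 bp with P19 replicate 2. For 3T3 replicate 2 it was 92 and 94 bp. Between the 3T3 libraries it was 115.5 bp from replicate 1 and 91 bp from replicate 2, and between the P19 libraries 49.5 and 46.5 bp. The offset between lines was thus about as large as that between the 3T3 libraries. Widths differ between the libraries and bear on these offsets, so they do not measure how exactly sites coincide. A 3T3 peak usually met a single P19 peak. Between 2.35% and 9.84% of the 3T3 peaks with a partner covered 2 or more P19 peaks, with the higher values in 3T3 replicate 2, whose peaks are wider. Among 3T3 peaks without a partner, 40.6% of those of replicate 1 and 28.7% of those of replicate 2 had the midpoint of a P19 replicate 1 peak within 5000 bp. In the other direction, P19 peaks without a 3T3 partner stood far from any 3T3 peak. The median distance was 44230 bp for P19 replicate 1 with 3T3 replicate 1 and 34557 bp with 3T3 replicate 2, and 13.2% and 14.7% lay within 5000 bp. The sparser 3T3 lists lengthen such distances by themselves.

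Single regions show the kinds of site. They were chosen by rank and are given in mm9, without gene names, because no annotation of mm9 was at hand. The region with the highest lowest percentile over the 4 libraries was chr17:39979804-39985913, a 6110 bp interval that scored 3100 in each of the 4 libraries. Its peak was 5903 to 6110 bp wide in these libraries, with nearly the same midpoint in each. Named regions were not checked against repeats or the input libraries, so an artefact there would not be seen. The region chr6:115942684-115945739 scored 2696 and 3100 in the 3T3 libraries and 3100 in both P19 libraries. The region chr5:111845499-111850945 scored 2620 and 3100 in 3T3 and 3100 in both P19 libraries, where it was split into 3 peaks each. The next of this kind, chr15:81523027-81525869, scored 2074 and 2968 in 3T3, and chr11:74978553-74983532 scored 1389 and 3208. All 5 spanned 2843 bp or more, and both P19 libraries stood at 3100 in each of them.

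Strong P19 regions with no 3T3 peak were narrower. The first was chr12:112661316-112662655, which scored 3100 and 3155 in P19 and whose nearest 3T3 midpoints lay 5908 and 5627 bp away in the 2 libraries. The region chr13:24119945-24121043 scored 3233 and 3100, with the nearest 3T3 midpoints 252698 and 94732 bp away. The region chr1:14103102-14104416 scored 3228 and 3100, with the nearest midpoints 152480 and 196287 bp away. The last of this kind on a placed chromosome, chr7:84479199-84480216, scored 3222 and 3100, and its nearest 3T3 midpoints were 540646 and 1081374 bp away. The remaining one lay on an unplaced contig of the Y chromosome and scored 3225 and 3100. These 5 regions spanned 1018 to 1340 bp.

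The 3T3 regions with no P19 peak were chosen in the same way. The first, chr15:6477133-6483999, was 6867 bp wide and scored 2093 and 1652 in the 3T3 libraries. Its nearest P19 midpoints lay only 5784.5 and 5698.5 bp from its own midpoint. The region chr18:7608767-7609876 scored 895 and 1669, with the nearest P19 midpoints 83819 and 17390 bp away. The region chr10:66558812-66560208 scored 591 and 1176, chr4:115893261-115894493 scored 502 and 884, and chr17:13743094-13746466 scored 740 and 827. Their nearest P19 midpoints lay 7813.5 and 30315 bp, 3385.5 and 38185 bp, and 95967.5 and 19172 bp away. None of these 5 reached 3100 in a 3T3 library, but only 1 peak of 3T3 replicate 1 and 16 of replicate 2 did so at all.

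Among regions seen in all 4 libraries, the widest gaps in rank ran both ways. The region chr18:43162223-43163807 scored 50.5 and 50.4 in 3T3, close to the minimum of 50, and 3100 in both P19 libraries. The region chr13:107440257-107441167 scored 52.0 and 52.9 in 3T3 and 2875 and 3100 in P19, and chrX:62142633-62143750 scored 52.3 and 56.2 in 3T3 and 3100 in both P19 libraries. In the opposite direction, chr17:53618060-53619534 scored 288.4 and 616.2 in 3T3 and 50.5 and 50.6 in P19. The region chr8:124113998-124115187 scored 415.5 and 630.6 in 3T3 and 53.8 and 56.6 in P19. The region chr19:60018945-60019844 scored 439 and 748 in 3T3 and 58.1 and 57.2 in P19. Scores can be set side by side only within a list, and these regions were picked for their gap.

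Among the 19 autosomes and the X chromosome, the X chromosome was the one at which 3T3 and P19 stood farthest apart, with a ratio of mean shares (3T3 over P19) of 0.657. It held 1.42% and 2.33% of the peaks in the 3T3 libraries and 2.92% and 2.78% in the P19 libraries, so the lines did not overlap, but the 3T3 libraries differed more from each other than 3T3 replicate 2 did from P19. Of the 1041 P19 regions on the X chromosome, 7.78% (6.31 to 9.57) overlapped a 3T3 region, against 24.5% on all other chromosomes and contigs together. The X share of 7.78% leans on 3T3 replicate 1, since it was 21.6% without that library, against 34.1% elsewhere. Without 3T3 replicate 2 it was 10.95%, against 26.5% elsewhere. Strong P19 sites were not lacking on the X chromosome, because 306 X regions had a mean P19 percentile over 90. Of these, 134 (43.8%) had no 3T3 peak in either library and 36 (11.8%) overlapped a 3T3 region, against 33.2% and 30.0% of all 4416 such P19 regions. Of the 158 3T3 regions on the X chromosome, 50.6% (42.9 to 58.3) overlapped a P19 region, against 68.3% of all 3T3 regions. The Y chromosome held 2 and 3 peaks in the 3T3 libraries and 23 and 24 in the P19 libraries. Its ratio of mean shares was 0.288, which rests on few peaks.

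Among the 19 autosomes and the X chromosome, the share of peaks was higher in both 3T3 libraries at 6 chromosomes (30.0%) and lower in both at 8 (40.0%). The higher ones were chromosomes 2, 3, 10, 15, 17 and 19. The lower ones were chromosomes 1, 4, 5, 11, 12, 14, 18 and X. With the best-scoring 50% of each list, 8 were higher and 6 lower, and with lists of equal length 5 were higher and 5 lower. Chromosome 19 held 3.40 ± 0.178% of the 3T3 peaks and 2.74 ± 0.0665% of the P19 peaks (SD, n = 2), a ratio of 1.24. Chromosome 10 held 5.61 ± 0.178% against 4.75 ± 0.024%, a ratio of 1.18. Chromosome 14 held 2.82 ± 0.134% against 3.135 ± 0.0134%, a ratio of 0.899. Chromosome 19 also had the highest share of P19 regions overlapping a 3T3 region among these chromosomes, 31.9% (28.9 to 35.05), and after the X chromosome the lowest was 17.7% (15.5 to 20.1) on chromosome 14. Contigs not placed on any chromosome held 0.595% and 0.49% of the 3T3 peaks and 0.297% and 0.197% of the P19 peaks. Of their 58 3T3 regions, 93.1% overlapped a P19 region.

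A finer division into 10 Mb bins was tested with limma on the log2 share of a library's peaks. Of 272 bins, 35 (12.9%) were relatively richer in 3T3 and 50 (18.4%) relatively richer in P19 at a Benjamini-Hochberg adjusted p under 0.05. The share was higher in both 3T3 libraries in 98 bins (36.0%) and lower in both in 105 (38.6%). With lists of equal length limma called 59 bins richer in 3T3 and 93 richer in P19. A crossed replicate block, added after the data were seen, called 12 and 38. Without P19 replicate 1 or without P19 replicate 2, limma called 0 bins, with 58 and 60 at an unadjusted p under 0.05. Without 3T3 replicate 1 it called 128 bins and without 3T3 replicate 2 it called 165, and in these fits the lone library of a line was taken to vary like the other line.

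The bin relatively poorest in 3T3 was chromosome 14 from 90 to 100 Mb, with 4 and 5 peaks in the 3T3 libraries and 44 and 51 in P19. Its log2 difference (3T3 minus P19) was -1.68 ± 0.09 (SE), with a limma adjusted p of 0.0038. The bin X from 120 to 130 Mb held 5 and 11 peaks in 3T3 and 59 and 69 in P19, and chromosome 17 from 90 Mb to its end held 3 and 6 against 34 and 37. The bins X from 20 to 30 Mb (8 and 17 against 76 and 95) and X from 140 to 150 Mb (8 and 13 against 60 and 77) followed among the bins called. The bin X from 100 to 110 Mb (log2 difference -1.55, limma adjusted p 0.121) was not called. It held 4 and 21 peaks in the 3T3 libraries. The bin X from 60 to 70 Mb (-1.30, limma adjusted p 0.0849) was not called either, with 7 and 22 peaks in 3T3. Of the 17 X bins tested, 7 passed the threshold, and 1 of these was relatively richer in 3T3. The bin relatively richest in 3T3 was chromosome 12 from 20 to 30 Mb, with 65 and 55 peaks in 3T3 and 82 and 106 in P19. Its log2 difference was 0.83 ± 0.16 (SE), with a limma adjusted p of 0.0203. Chromosome 18 up to 10 Mb followed, with 41 and 36 peaks against 58 and 80. Chromosome 19 from 60 Mb to its end held few peaks, 12 and 10 against 19 and 21. Chromosome 2 from 70 to 80 Mb held 75 and 78 against 115 and 163. Chromosome 10 from 80 to 90 Mb, a dense stretch in both lines, held 152 and 191 against 280 and 351, with a log2 difference of 0.58 ± 0.09 (SE) and a limma adjusted p of 0.0142. Among the bins called, the 5 farthest toward P19 lay between -1.68 and -1.16 on the log2 scale, and the 5 farthest toward 3T3 between 0.58 and 0.83. The pseudocount of 1 peak shrinks the difference of sparse bins. The limma fit did not weight bins by their number of peaks. The SE and p of sparse bins, such as chromosome 14 from 90 to 100 Mb, may therefore understate their counting error.

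**Figure D5:**
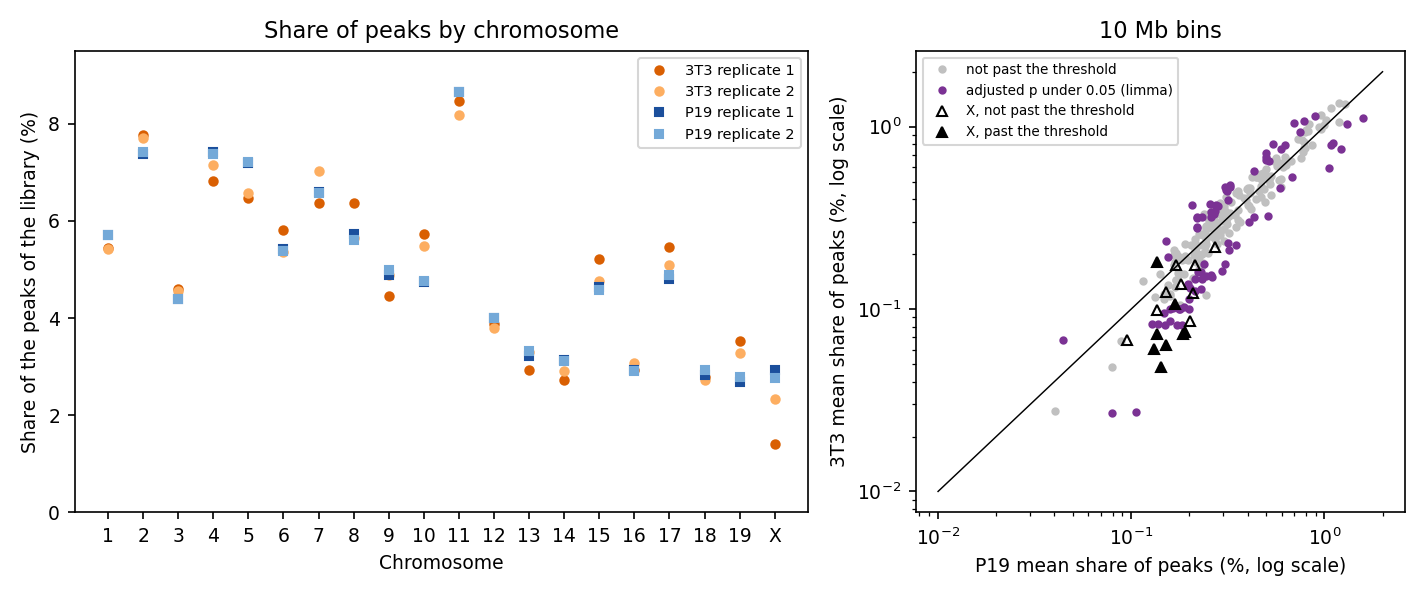
Left, share of each library's peaks by chromosome in percent (circles 3T3, squares P19). Right, mean share of peaks of 3T3 against P19 in 272 bins of 10 Mb on log axes, with bins past the limma threshold in purple, X bins as triangles and the line of equal shares. X chromosome shares are 1.42% and 2.33% in 3T3 against 2.92% and 2.78% in P19, and most X bins lie below the line.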

How the data were processed

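DPPA4 ChIP-seq peak lists of 2 3T3 and 2 P19 libraries were used, grouped by the line and number in their titles. E14 lists gave only the number of peaks in the series. Per the submitters' processing notes, CASAVA 1.8, bcl2fastq 1.8, BWA 0.7.13-r1126, SAMtools 1.3 and mm9 were used. The authors deposited 1 list per library, with a score per peak whose scale the files do not name. Peak names begin with MACS, and the sources used here do not give the caller's version, threshold or control. The labels do not say whether replicates are separate cultures, so p-values may measure technical spread.

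Percentiles were computed within a list with ties averaged. Lists were ranked and overlapped in Python 3.11.15, NumPy 2.4.6, pandas 2.3.3 and SciPy 1.17.1, with Matplotlib 3.10.9 for figures. Bins were fitted with limma 3.58.1 in R 4.3.3 on log2((peaks + 1) per peak of the library), for bins with a mean of at least 10 peaks, and p-values were adjusted by Benjamini-Hochberg. The code was tested on simulated data. Regions named were the 5 strongest by the lowest percentile over all 4 libraries, over P19 where 3T3 had no peak and over 3T3 where P19 had none, and the 3 with the widest gap each way, with the 5 bins farthest each way among those called. The members, rules and comparisons were chosen with earlier results of these data known. Regions were not assigned to genes and no sequences are shown, since the reference tables at hand belong to another assembly. Alternatives were another overlap, the best-scoring 50%, equal list lengths, peaks of either library, autosomes alone, 500 bp windows, another bin size, pseudocount or filter, leaving out each library and a replicate block.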

Additional observations from a re-analysis of the deposited data

How the results depend on the processing

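The share of 3T3 regions overlapping a P19 region was 68.3%. It was 50.3% with the best-scoring 50% of each list, 33.7% with lists of equal length, 75.4% with peaks of either library, 66.9% with 500 bp windows and 62.5% to 81.8% without a library. The share of P19 regions overlapping a 3T3 region was 24.0%. It was 17.7% with the best-scoring 50%, 27.2% with lists of equal length, 28.1% with peaks of either library and 19.7% to 33.7% without a library. With a replicate block, pairing libraries of the same number, these shares were 69.6% and 25.7%. The number of peaks was 2.42 to 3.10 times higher in P19 without a library, and the ratio of median widths (P19 over 3T3) was 0.781, turning to 1.24 without 3T3 replicate 2 (range 0.569 to 1.24). Of 10 Mb bins, 85 were called, against 152 with lists of equal length, 0 to 165 without a library and 91 with the replicate block. Same-numbered libraries deviated from their line means with a correlation of -0.145 over 272 bins, and a crossed replicate block, added after the data were seen, called 50. Nothing in the labels ties equal numbers together. The cause of these shifts was not tested. The score minimum limits which weak sites can be seen. The 500 bp windows for width classes, the other subsets of the rank correlation and the X chromosome values without a library were added after the data were seen.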
